A study of Mus musculus with 12 samples.

Results

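Beta-catenin, the kinases, scaffolds and ubiquitin ligase adaptor that mark it for destruction, and the proteins that carry it into transcription were followed as mRNAs through bulk RNA sequencing of mouse heart ventricles. The 10 genes Ctnnb1, Csnk1a1, Gsk3a, Gsk3b, Axin1, Apc, Amer1, Btrc, Bcl9 and Pygo2 were taken by symbol from the deposited count table, where each matched 1 of 40800 gene IDs, and each passed the low-count filter. The 12 libraries came from ventricles at embryonic day 12.5, with 6 libraries of the genotype "wnt gof" (Wnt gain of function, raised Wnt signalling) and 6 of the genotype "control". The engineered allele, its driver, the strain and the number of embryos in a library are not named in the labels, nor are the libraries tied to separate animals, so p-values below measure the spread between these libraries. Right and left ventricles, which the title of the series sets against each other, are not told apart by the labels.

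Without a Wnt signal, newly made beta-catenin is bound by the scaffolds Axin and APC, phosphorylated first by casein kinase 1 alpha and then by glycogen synthase kinase 3, and handed to the ubiquitin ligase adaptor beta-TrCP for degradation. When this complex is inhibited, beta-catenin builds up, enters the nucleus and works with TCF/LEF factors, to which BCL9 and Pygopus proteins are joined as coactivators. The pathway is regulated chiefly at the level of protein. In the embryonic heart it is known for its role in the growth and patterning of the ventricular wall.

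The target of the destruction complex is a short stretch of beta-catenin encoded in exon 3 of Ctnnb1, shown here because it joins the kinases and the ligase adaptor measured below. In GENCODE release M21 (GRCm38) exon 3 of the Ctnnb1 transcript with 15 exons lies at chr9:120950522-120950749 on the plus strand and is entirely coding. The 14 codons from 32 to 45, at chr9:120950602-120950643, are given 5′ to 3′ as RNA-sense DNA, with the codons of the phosphorylated residues 33, 37, 41 and 45 in capitals.
Ctnnb1 codons 32 to 45: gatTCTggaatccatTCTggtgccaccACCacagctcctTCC
Casein kinase 1 alpha acts on residue 45 and glycogen synthase kinase 3 on 41, 37 and 33, and beta-TrCP reads the stretch around 33 and 37 once it is phosphorylated. Deletion of this exon is a common way to stabilise beta-catenin in mice, but whether it was used here is not stated. Exon 3 has 228 of the 3623 bases of that transcript, or 6.29%, and counts summed over a gene do not resolve it.

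The deposited counts came to between 12127026 and 17184662 in each of the Wnt gain-of-function libraries and between 10130088 and 17526325 in each control library. Each of the 10 genes was well covered, with the lowest count in any library running from 59 for Gsk3a to 5046 for Gsk3b. The pathway readouts show how the libraries relate to their labels. Axin2, a feedback scaffold of the complex, was at 3.77 CPM (a gene's reads relative to the library's total, with totals scaled by edgeR's trimmed mean of M values) in Wnt gain-of-function replicate 5 and at 14.9 to 26.0 CPM in the other 5 libraries of that genotype, against 1.39 to 4.13 CPM in control libraries. Notum, a secreted Wnt inhibitor, was at 1.18 CPM in replicate 5 and at 12.9 to 22.4 CPM in the rest of that genotype. Replicate 5 was here above the control libraries, which reached at most 0.874 CPM. Nkd1, an intracellular Wnt antagonist, was at 4.14 CPM in replicate 5, inside the control range of 2.58 to 7.17 CPM. The rest of the genotype had 16.4 to 30.0 CPM. The transcription factor gene Lef1 was at 30.4 CPM in replicate 5, inside the control range of 9.32 to 40.7 CPM. It was at 45.9 to 95.5 CPM in the rest of the genotype. Replicate 5 therefore lay below the rest of its group at each of these genes. Expression over all genes also sorted the libraries into 3 sets of 4 that each hold 2 libraries of either genotype. Set 1 holds Wnt gain-of-function 1 and 2 with control 2 and 3, set 2 holds Wnt gain-of-function 3 and 4 with control 4 and 5, and set 3 holds Wnt gain-of-function 5 and 6 with control 1 and 6. The library pairs Wnt gain-of-function 1 and 2, Wnt gain-of-function 3 and 4, and control 2 and 3 lay far closer than any other pair of a genotype, with a mean chi-square per gene of 3.10, 3.07 and 3.32 against 12.8 or more. Whether they are separate animals is not stated, and with each of these pairs summed into 1 sample edgeR called 1 gene over the whole table, against 74 with 12 libraries, and 0 of the 10.

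None of the 10 genes passed the test between the genotypes, and the groups of libraries overlapped for each of them. The median of their log2 fold changes (Wnt gain of function over control) was 0.034, with 8 above 0 and 2 below, and the changes ran from -0.084 for Bcl9 to 0.13 for Btrc. Over all 14774 genes tested the median was 0.0013. In edgeR's quasi-likelihood test with Benjamini-Hochberg adjustment 0 of the 10 genes passed an adjusted p of 0.05, where 0.501% of all tested genes did, and 0 had an unadjusted p under 0.05, where 6.3% did. The groups did not overlap in CPM for 0.46% of tested genes. With so low a share over all genes, a count of 0 among 10 does not set these genes apart. DESeq2 also called 0 of them, against 1.08% of tested genes. With Wnt gain-of-function replicate 5 left out, 0 of the 10 were called as well, while the count over all genes was 177 in place of 74. What the data add is the size of change that remains possible, given below for each gene as a 95% interval from the fit. The edgeR adjusted p was 0.999 for each of the 10 and is not repeated. The intervals count all libraries as separate samples and are too narrow if the closest pairs are not. With those pairs summed the standard error (SE) was larger for each of the 10, for example 0.085 against 0.072 for Ctnnb1 and 0.082 against 0.068 for Apc.

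**Figure D1:**
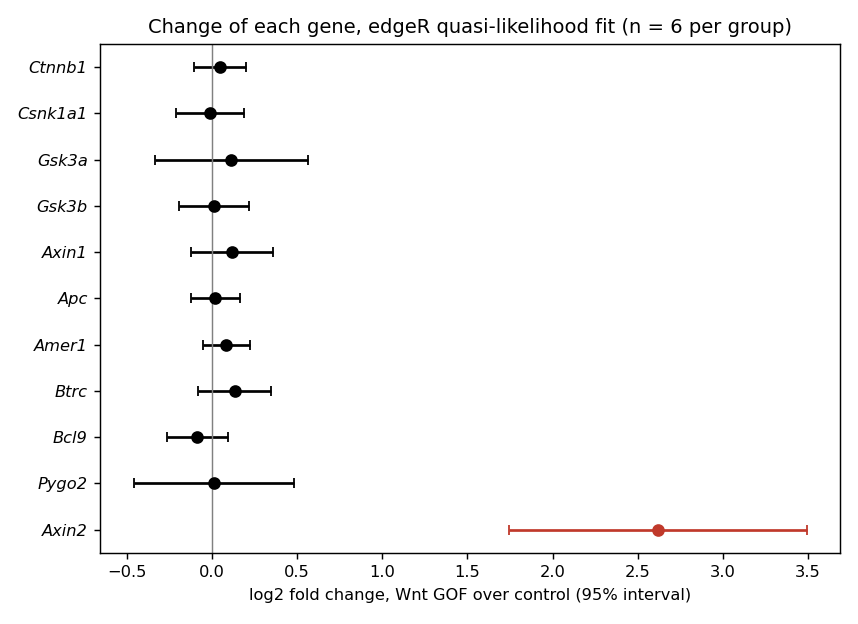
Log2 fold change (Wnt gain of function over control) of the 10 genes and of Axin2, with bars for the 95% interval of the edgeR fit over 12 libraries and red for an adjusted p under 0.05. The 10 genes lie between -0.084 and 0.13 with intervals that cover 0, and Axin2 lies at 2.62.

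Ctnnb1 (ENSMUSG00000006932, chr9:120929216-120960507 on the plus strand in GRCm38) encodes beta-catenin itself. Its lowest, median and highest levels were 258, 290.0 and 320.4 CPM in the Wnt gain-of-function libraries and 260.0, 280.4 and 299 CPM in control libraries. The medians were close and Wnt gain-of-function libraries reached both lower and higher than the controls. The log2 fold change was 0.049 ± 0.072 (SE), with an interval from -0.10 to 0.20, so that the fitted ratio lies between 0.930 and 1.15. Its level was higher than that of 96.6% of tested genes. The gene overlaps Ulk4 on the other strand, and 15.1% of its merged exon bases are shared with other annotated genes. Because the strand setting of the counting is not given, reads of Ctnnb1 and Ulk4 cannot be told apart there. The 5 genes whose log2 CPM followed Ctnnb1 most closely over the 12 libraries, among 9127 with a mean of at least 10 CPM, were Ext2 (Pearson r = 0.957), Cdc37 (0.939), Taf5 (0.936), Strap (0.931) and Mbd3 (0.929). These 12 points share the library sets described above, and the median r over the 9127 genes was -0.038.

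None of the 3 kinase genes passed the test. Csnk1a1 (ENSMUSG00000024576), which encodes the priming kinase casein kinase 1 alpha, had its lowest, median and highest levels at 366, 449.7 and 509 CPM in the Wnt gain-of-function libraries, against 393, 448 and 505 CPM in control libraries. Wnt gain-of-function replicates 1 and 2, a closest library pair, lay below every control library at 366 and 375 CPM. The other 4 overlapped the controls or lay just above them. The log2 fold change was -0.0085 ± 0.094 (interval -0.21 to 0.19). Gsk3b (ENSMUSG00000022812, chr16:38089001-38246084, plus strand), the glycogen synthase kinase gene best known for its part in the Wnt pathway, was at 553, 649 and 697 CPM in the Wnt gain-of-function libraries, against 508, 641 and 734 CPM in control libraries. Here the control libraries spread wider at both ends, and the log2 fold change was 0.013 ± 0.097 (interval -0.19 to 0.22). Gsk3a (ENSMUSG00000057177, chr7:25228258-25237851, minus strand), the paralogue that can stand in for Gsk3b in the complex, was at 4.74, 6.73 and 11.7 CPM in the Wnt gain-of-function libraries and 5.23, 6.85 and 8.34 CPM in control libraries. The Wnt gain-of-function libraries held both the lowest and the highest value. Its log2 fold change of 0.11 ± 0.21 had an interval from -0.34 to 0.56, so that ratios from 0.792 to 1.48 are not distinguishable at this depth and spread. Of its exon bases 28.3% are shared with 9130221H12Rik on the other strand. The level per length of Gsk3b was 64.9 ± 5.37 CPM per kb of merged exons in Wnt gain-of-function libraries and 64.3 ± 9.72 in control libraries (SD, n = 6 each), and that of Gsk3a was 2.53 ± 0.937 and 2.34 ± 0.388.

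The scaffolds did not pass the test. Axin1 (ENSMUSG00000024182, chr17:26138688-26195811, plus strand), the constitutive Axin, had its lowest, median and highest levels at 14.1, 18.1 and 20.3 CPM in the Wnt gain-of-function libraries, against 13.7, 16.7 and 18.7 CPM in control libraries. Its log2 fold change was 0.12 ± 0.11 (interval -0.12 to 0.36). Apc (ENSMUSG00000005871), the tumour suppressor that helps load beta-catenin onto the complex, was at 93.3, 95.2 and 108 CPM in the Wnt gain-of-function libraries and 87.5, 96.7 and 106 CPM in control libraries. With a log2 fold change of 0.019 ± 0.068, its interval from -0.12 to 0.16 was among the narrowest of the 10. Amer1 (ENSMUSG00000050332, chrX:95420318-95444872, minus strand), a scaffold that recruits Axin and APC to the membrane, was at 76.2, 81.3 and 87.6 CPM in the Wnt gain-of-function libraries and 69.7, 79.4 and 82.3 CPM in control libraries. Its log2 fold change was 0.085 ± 0.064 (interval -0.052 to 0.22), and its spread within groups was smaller than that of all but 6.27% of the 3639 genes of like level (within 2-fold in mean CPM).

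Btrc (ENSMUSG00000025217, chr19:45363734-45530013, plus strand), which encodes the ligase adaptor beta-TrCP, did not pass the test. Its lowest, median and highest levels were 42.6, 59.3 and 65.6 CPM in the Wnt gain-of-function libraries and 44.3, 50.9 and 53.8 CPM in control libraries. Of the Wnt gain-of-function libraries 4 lay above every control library, while replicates 3 and 4, both of set 2, were at 42.6 and 46.4 CPM. Replicates 3 and 4 are a closest library pair, as are replicates 1 and 2 among the 4, and may not be separate animals. The log2 fold change was 0.13 ± 0.10 with an interval from -0.080 to 0.35 (edgeR unadjusted p = 0.203). Single libraries moved it, to 0.079 without Wnt gain-of-function replicate 5 and to 0.20 without replicate 3 (edgeR adjusted p = 0.791). The fitted change of the coactivator Bcl9 (ENSMUSG00000038256, chr3:97203662-97297917, minus strand) was below 0, with levels of 49.8, 51.3 and 61.1 CPM in the Wnt gain-of-function libraries and 47.9, 57.8 and 64.3 CPM in control libraries, with a log2 fold change of -0.084 ± 0.083 (interval -0.26 to 0.093). Pygo2 (ENSMUSG00000047824, chr3:89430214-89435128, plus strand), whose protein binds BCL9 and reads methylated histone H3, was at 9.86, 15.2 and 22.2 CPM in the Wnt gain-of-function libraries and 11.9, 14.4 and 21.8 CPM in control libraries. Its group medians lay close, but both groups spread widely, and the interval of its log2 fold change ran from -0.46 to 0.48 around 0.012 ± 0.22.

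**Figure D2:**
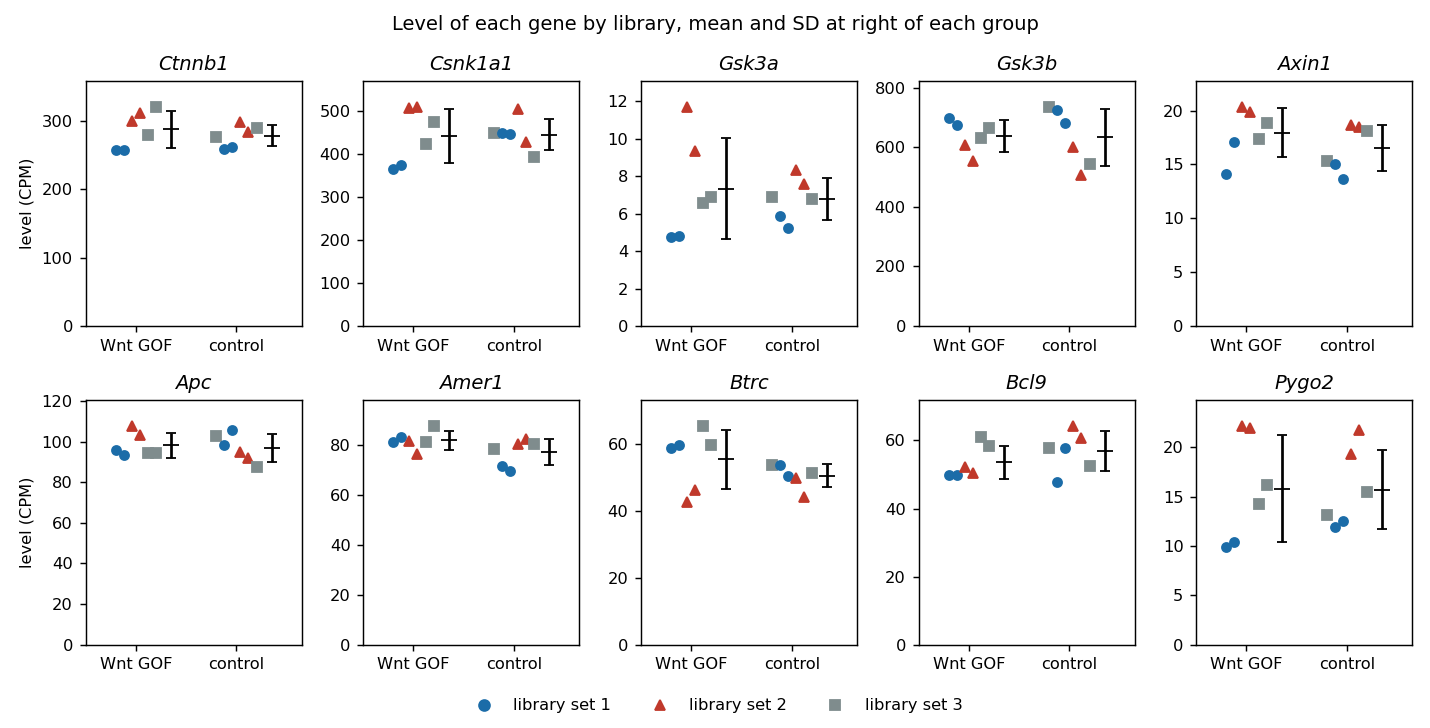
Level of each of the 10 genes in CPM in every library, Wnt gain of function left and control right, with symbols for the 3 library sets and a bar for the mean and SD of each group (n = 6). The genotypes overlap in each panel, while in Gsk3a and Pygo2 the set 2 libraries (triangles) sit above the set 1 libraries (circles) in both genotypes.

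Set side by side per length, the 10 genes covered more than an order of magnitude and kept the same order in both genotypes except for Pygo2 and Axin1. Per kb of merged exons, Gsk3b, Ctnnb1 and Csnk1a1 formed the upper tier, with control means of 64.3, 53.7 and 42.4 CPM per kb. The ranges of Gsk3b and Ctnnb1 over the 12 libraries overlapped, at 51.7 to 74.6 and 49.7 to 61.7 CPM per kb, while that of Csnk1a1, at 34.9 to 48.5, lay below both. Amer1 followed at 9.62 ± 0.434 in Wnt gain-of-function and 9.08 ± 0.614 in control libraries. Bcl9, Apc, Pygo2, Axin1, Btrc and Gsk3a came next, with control means of 6.73, 6.02, 4.33, 4.32, 2.99 and 2.34 CPM per kb. Neighbours among these overlapped in their ranges over libraries. The order depends on which length is used, since merged exons add up all annotated isoforms. Per kb of the longest coding transcript the control mean of Csnk1a1 was 109, ahead of 76.9 for Ctnnb1 and 76.2 for Gsk3b, and Btrc moved up to rank 4 with 16.7, while Gsk3a stayed lowest of the 10 with 3.00.

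**Figure D3:**
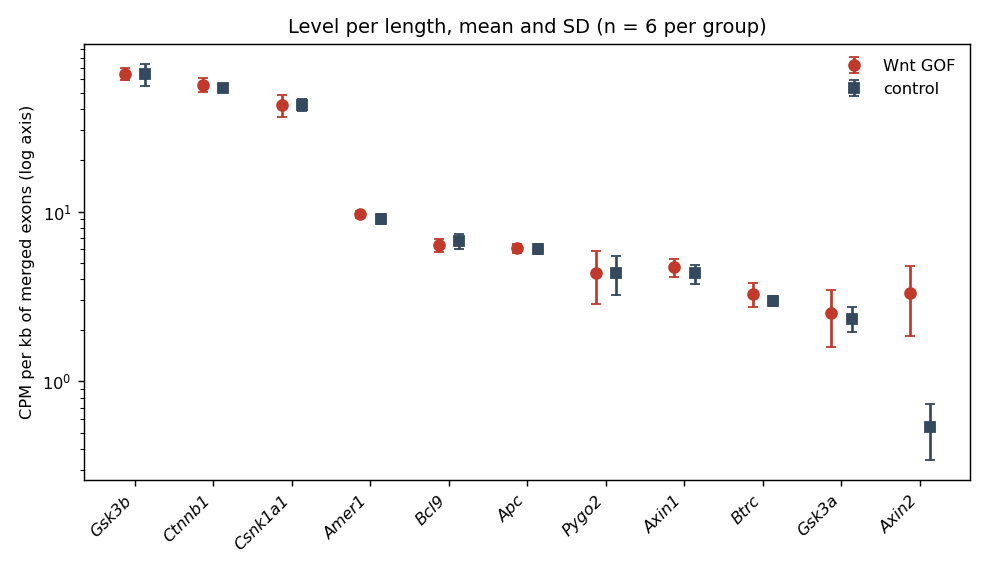
Level per kb of merged exons (GENCODE M21) on a log axis, mean and SD over 6 Wnt gain-of-function libraries (circles) and 6 control libraries (squares). Gsk3b, Ctnnb1 and Csnk1a1 form an upper tier in both genotypes, and Axin2 has means of 3.32 and 0.540 CPM per kb, with Wnt gain-of-function replicate 5 inside the control range.

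Ratios between partner genes within a library do not depend on how libraries are scaled. Of 8 listed pairs 6 could be compared, because Apc2 and Amer2 did not pass the low-count filter. The ratio of Axin2 to Axin1 was higher in Wnt gain-of-function libraries. Of the exon bases of Axin2 3.80% are shared with Gm11670 on the other strand. The log2 ratio of Axin2 to Axin1 counts was -2.19 in Wnt gain-of-function replicate 5 and from -0.20 to 0.60 in the other libraries of that genotype, against -3.39 to -2.14 in control libraries. Replicate 5 was thus inside the control range and the other 5 above it. The mean log2 ratio was -0.19 ± 1.02 in Wnt gain-of-function and -2.55 ± 0.469 in control libraries (SD, n = 6 each). The difference of 2.36 passed an exact two-sided permutation test over libraries (p = 0.00433, 0.026 adjusted over 6 pairs). Axin2 was also called on its own in these libraries, as given below, so the ratio is not separate support. Without replicate 5, which stood apart at this same ratio, the difference was 2.76. The exact permutation p was then 0.00216 (0.013 adjusted), the smallest that design can give. Since the other 5 libraries all lay above the controls, leaving out replicate 5 fixed this p in advance. Within the library sets the difference was 3.29 in set 1, 2.58 in set 2 and 1.21 in set 3, each with 2 libraries per genotype and no test. When the exchange of labels was kept inside the sets, exact p was 0.00926 (0.0556 adjusted), the smallest that design can give. With the closest library pairs averaged into 1 sample, the exact permutation p was 0.0159 (0.0952 adjusted). Per length, Axin2 reached 3.32 ± 1.49 CPM per kb in Wnt gain-of-function libraries, near the 4.69 ± 0.591 of Axin1, against 0.540 ± 0.197 for Axin2 and 4.32 ± 0.555 for Axin1 in control libraries.

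The other 5 pairs did not pass the test, with unadjusted exact permutation p from 0.45 to 0.931 and adjusted p of 0.931 for each. The log2 ratio of Gsk3a to Gsk3b ran from -7.19 to -5.69 in Wnt gain-of-function libraries and from -7.02 to -6.06 in control libraries. That of Btrc to its paralogue Fbxw11, the other beta-TrCP gene, averaged 0.027 ± 0.372 in Wnt gain-of-function and -0.055 ± 0.197 in control libraries. Bcl9 to its paralogue Bcl9l gave a mean log2 ratio of counts of 2.86 ± 0.496 in Wnt gain-of-function and 2.91 ± 0.250 in control libraries. Pygo2 to its paralogue Pygo1 gave mean log2 ratios of 0.056 ± 0.455 in Wnt gain-of-function and 0.090 ± 0.374 in control libraries. The armadillo paralogue Jup, which encodes plakoglobin, stood at a mean log2 ratio to Ctnnb1 of -2.14 ± 0.251 in Wnt gain-of-function and -2.03 ± 0.263 in control libraries.

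**Figure D4:**
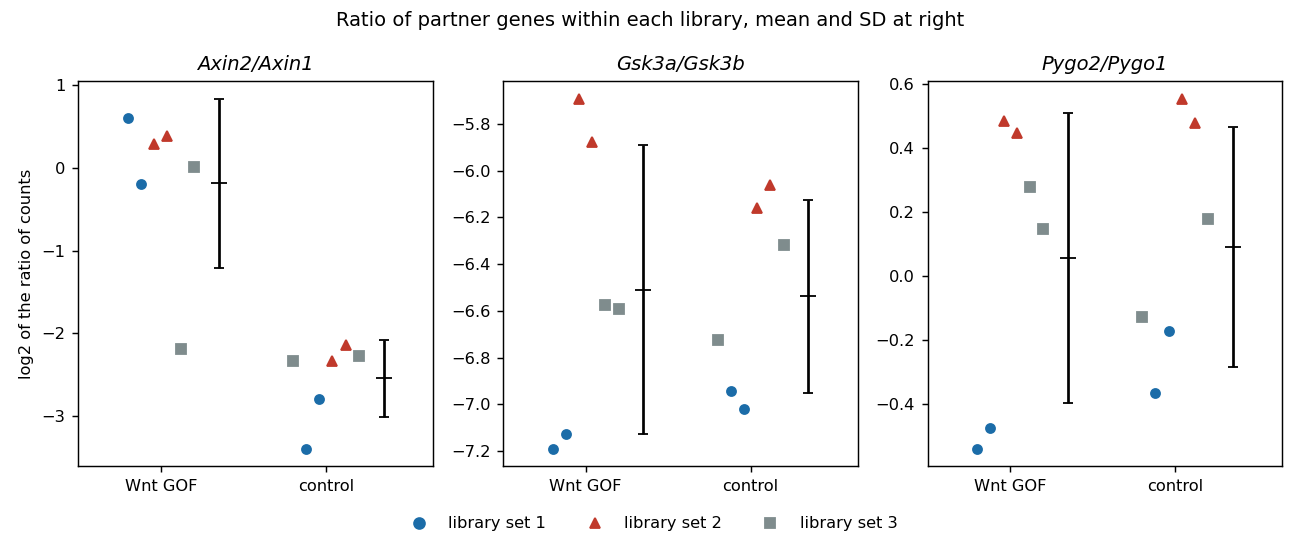
Log2 ratio of counts of 3 gene pairs in every library, Wnt gain of function left and control right, with symbols for library sets and mean and SD at the right (n = 6); the vertical axes differ and do not start at 0. Axin2 to Axin1 separates 5 of 6 Wnt gain-of-function libraries from the control libraries, whereas Gsk3a to Gsk3b and Pygo2 to Pygo1 separate set 1 from set 2 within both genotypes.

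Other genes of the pathway were taken from a wider list. Of 15 further partners of the destruction complex 13 could be tested, 1 rose and 0 fell, where 0.501% of all tested genes were called in either direction. The one that rose was Axin2, 2.62 ± 0.404 higher on the log2 scale (adjusted p = 0.0145 in edgeR, above every control library in 5 of 6 libraries). Of 9 regulators of the complex, among them the Dishevelled and tankyrase genes, 8 could be tested and 0 passed, with a median log2 fold change of -0.052. Of 14 nuclear partners 0 passed, with a median of 0.0082. With Jup added as the armadillo paralogue, the wider list had 36 tested genes of 39, of which 19 lay above 0 and 17 below, with a median of 0.0068. After Axin2 the lowest edgeR p belonged to Ctnnbip1, which encodes an inhibitor that keeps beta-catenin off TCF factors, with a log2 fold change of 0.28 ± 0.17 (unadjusted p = 0.119). Cdc73, of the PAF complex that beta-catenin recruits, was at 0.13 ± 0.11. Smarca4, a chromatin remodelling ATPase, was at 0.10 ± 0.10, and Csnk2a1, a casein kinase 2 subunit, at -0.14 ± 0.13. Axin2 was called with the 3 sets, which were drawn from these same data, as a block (edgeR adjusted p = 0.0242). It was not called with the replicate block (0.125), with the closest pairs summed (0.22) or with limma-voom (0.0982). In the edgeR fit with the sets as a block Ctnnbip1 had an unadjusted p of 0.0176 and an adjusted p of 0.233. In that fit 12.6% of tested genes had an unadjusted p under 0.05 and 2% an adjusted p under 0.05.

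Some of the 10 genes differed in level between library sets 1 and 2. Pygo2 was at 19.4 to 22.2 CPM in the 4 libraries of set 2 and at 9.86 to 12.5 CPM in the 4 of set 1. Gsk3a was at 7.55 to 11.7 CPM in set 2 and 4.74 to 5.85 CPM in set 1. In both genes set 3 lay between, at 13.2 to 16.2 CPM for Pygo2 and 6.59 to 6.90 CPM for Gsk3a. Ctnnb1, at 284 to 312 CPM in set 2 and 258 to 262 CPM in set 1, and Axin1, at 18.4 to 20.3 and 13.7 to 17.1 CPM, were also higher in set 2. Gsk3b and Btrc ran the other way, with 508 to 606 CPM in set 2 against 676 to 726 CPM in set 1 for Gsk3b, and 42.6 to 49.8 against 50.6 to 59.7 CPM for Btrc. In these 6 of the 10 genes sets 1 and 2 did not overlap, while they overlapped in Csnk1a1, Apc, Amer1 and Bcl9. The sets were found by clustering these libraries on all genes, so this describes them and no test applies. Over all tested genes 33.9% did not overlap between sets 1 and 2.

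For Pygo2 and Gsk3a, GC content went along with this pattern. Pygo2 and Gsk3a have the highest GC of the 10, at 54.55% and 52.82%, and the largest log2 difference of set 2 over set 1, at 0.93 and 0.81. These lay at the 97.2 and 95.8 percentile of all tested genes. The other 8 genes have a GC of 39.23% to 46.34% and differences from -0.30 to 0.37. Csnk1a1, the lowest in GC, was at 0.25, and Gsk3b, the next lowest, at -0.30. Over all tested genes the median difference of set 2 over set 1 was 0.091 in genes with 50% GC or more and -0.055 in those under 42%. The quartiles of these GC classes overlapped, at -0.18 to 0.37 and -0.29 to 0.20. The slope of expression on GC, in log2 per 10 percentage points, ran from 0.036 to 0.093 in the libraries of set 2 and from -0.087 to -0.040 in those of set 1. With the GC slope of each library as a covariate, the SE of the log2 fold change was 0.11 for Pygo2 and 0.16 for Gsk3a. Without it the SE was 0.22 and 0.21. That covariate was added after seeing the data and drawn from these same libraries. The part of GC in the spread of Pygo2 and Gsk3a was not tested. Within the groups their SD of log2 CPM was 0.43 and 0.40, above 92.6% and 79.7% of genes of like level.

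**Figure D5:**
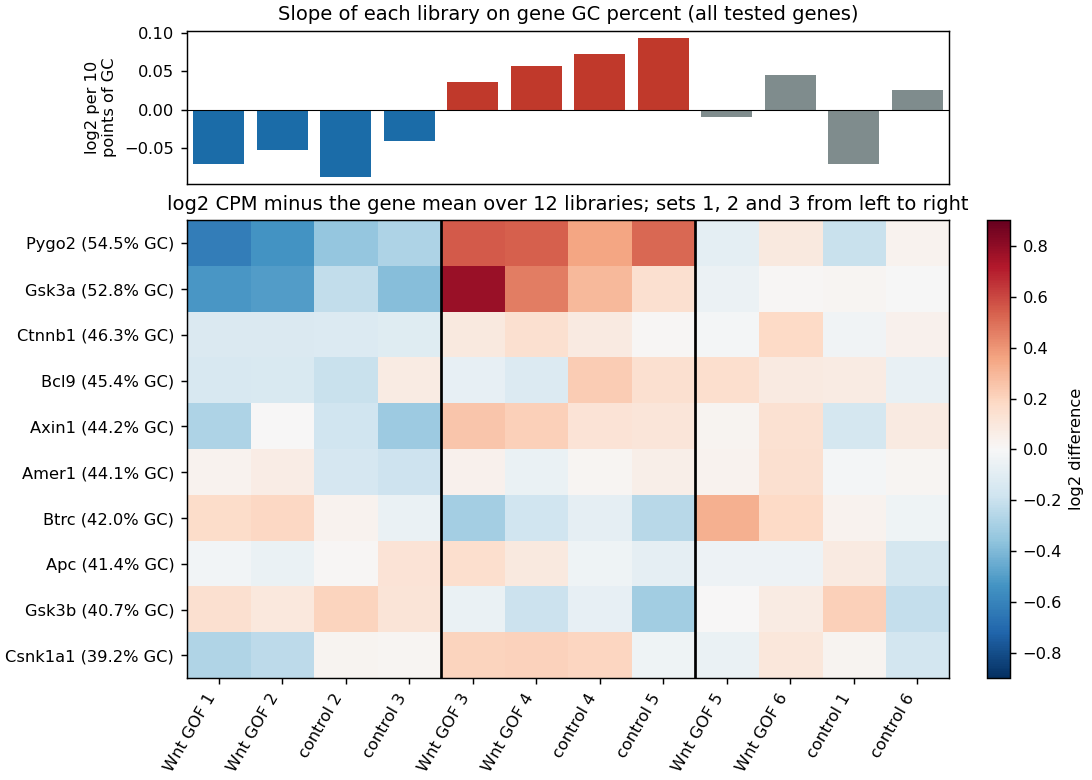
Top, slope of each library's expression on gene GC percent over all tested genes, in log2 per 10 percentage points; bottom, log2 CPM of each gene minus its mean over 12 libraries, genes ordered by GC percent and libraries by set with Wnt gain of function before control. Pygo2 and Gsk3a are low in the 4 libraries of set 1 and high in the 4 of set 2, in both genotypes.

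Because each set holds 2 libraries of either genotype, the comparison of genotypes could also be made with the sets as a block, a choice made after seeing the data. The sets were drawn from deviations from the group means, the same spread that the fit measures. Narrower intervals therefore follow from how the sets were made and do not show added precision. The intervals became narrower and 0 of the 10 genes passed. The log2 fold change was 0.046 ± 0.050 for Ctnnb1, -0.020 ± 0.090 for Pygo2 and 0.069 ± 0.12 for Gsk3a. Btrc had the lowest edgeR p, 0.077 unadjusted and 0.485 adjusted, at 0.12 ± 0.066 (interval -0.015 to 0.26). Inside the sets, Btrc differed by 0.18, -0.080 and 0.25 between Wnt gain-of-function and control means of log2 CPM in sets 1, 2 and 3. Bcl9 differed by -0.079, -0.28 and 0.12, and Csnk1a1 by -0.27, 0.13 and 0.097. Axin1 differed by 0.11, 0.11 and 0.12.

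The authors' deposited table, whose columns are named as limma writes them, gave the 10 genes log2 fold changes from -0.084 for Bcl9 to 0.12 for Axin1 and Btrc. Its interval for Ctnnb1 ran from -0.105 to 0.194, and the lowest adjusted p among the 10 was 0.917, for Amer1. That table called 0.13% of its genes at an adjusted p under 0.05, and Axin2 was not among them, with a log2 fold change of 2.48 and an adjusted p of 0.0756 in the authors' deposited table.

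In bulk libraries fewer cells of a type and less RNA per cell cannot be told apart, and a change confined to some of the cells is diluted by the rest. The summed level of 5 cardiomyocyte markers was 14762 to 19684 CPM in Wnt gain-of-function and 15105 to 20866 CPM in control libraries, with 0 of 5 called, and those of the endothelial (0 of 5 called), epicardial (0 of 4) and cushion or fibroblast (0 of 4) lists overlapped between groups as well. Of 3 mural markers 1 fell, Rgs5, with means of 13.5 and 78.8 CPM in Wnt gain-of-function and control libraries, while Pdgfrb averaged 38.1 and 38.0 CPM and Cspg4 53.0 and 54.1 CPM. The list summed to 88.2 to 119 CPM in Wnt gain-of-function and 116 to 212 CPM in control libraries. For the 4 macrophage markers each fitted change was above 0 (median 0.48 on the log2 scale) and 0 were called; they summed to 28.4 to 55.7 CPM in Wnt gain-of-function and 29.0 to 37.5 CPM in control libraries. Erythroid markers varied between libraries of both groups, from 9284 to 71732 CPM in Wnt gain-of-function and from 7035 to 62255 CPM in control libraries, with 0 of 4 called. None of the listed markers was at 0 in any library, and their part in the ratio of Axin2 to Axin1 was not tested.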

How the data were processed

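Bulk RNA-seq of 12 ventricle libraries was analysed from gene-level tables. The deposited counts are whole-number reads per Ensembl gene, per the file headers, and Subread, featureCounts and edgeR are named in the submitters' processing notes. The sources used here do not give aligner options, build, annotation or strand setting. GC percent is a deposited annotation column, per the file headers. The authors' table holds log2 fold changes, p-values and log-odds scores under limma's column names, per the file headers. The authors' deposited score columns were not used.

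Repeated rows (622 of 41422, identical in counts) were dropped. Counts were fitted in R 4.3.3 with edgeR 4.0.16 (filterByExpr with a minimum count of 10, TMM, robust glmQLFit, genotype alone), with adjustment over all genes. Intervals are at 95% from the quasi-likelihood F. DESeq2 1.42.0 and limma 3.58.1 were alternatives. CPM use TMM-scaled library sizes, and log2 CPM for clustering a prior count of 2. Ratios used counts plus 0.5 and exact permutation over 924 regroupings. The sets and closest-pair alternatives and the GC covariate were added after seeing the data. Library sets came from average-linkage clustering, divided into 3, of deviations from group means. Lengths and overlaps come from GENCODE M21, in which all 10 gene IDs were found. Named genes are the 10, 4 readouts, called genes and the 4 lowest p of the wider list, and the 5 genes most like Ctnnb1. Members and lists were chosen with earlier results of these data known. In counts simulated for this comparison (14602 genes tested), 68% of genes raised by 1 and 26% of those raised by 0.5 on the log2 scale were called. Of the intervals 95.3% held the true value. The simulation was not shown to copy the library sets and closest pairs, so these shares may not hold for the real libraries. All library pairs of a genotype differed by more than sampling noise (mean chi-square per gene of 3.07 or more, where noise gives about 1), so the 12 were counted as labelled. This does not show that they are separate animals, and the 3 closest pairs were also summed as an alternative.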

Additional observations from a re-analysis of the deposited data

Results flagged for a closer look

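The log2 ratio of Axin2 to Axin1 in Wnt gain-of-function replicate 5, at -2.19, lay far from the other 5 libraries of its genotype, whose nearest value was -0.20. The gap was 0.713 of the group's range and above Dixon's 95% critical value for 6 samples. It was the single such library in 32 groups of 6 examined (10 genes and 6 ratios in either genotype), and chance flags about 1 in 20 groups. In the same library Btrc, at 65.6 CPM, and Bcl9, at 61.1 CPM, were the highest of their genotype, and Ctnnb1 was at 279 CPM. Neither was beyond the critical share.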

How the results depend on the processing

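In each of 25 alternatives 0 of the 10 genes were called. Among them the threshold of 0.01 could give no other count, since 0 of the 10 passed at 0.05. Ctnnb1, Axin1, Amer1, Btrc and Bcl9 kept their direction in all 24 alternative fits, which share most of their libraries. Inside the library sets Axin1 alone of these kept it. Ctnnb1 was at -0.014 in set 1, Amer1 at -0.045 and Btrc at -0.080 in set 2, and Bcl9 at 0.12 in set 3. The number of genes called over the whole table was 74 and moved to 160 with DESeq2, 6 with limma-voom, 128 with Y-linked expression as a covariate, 10 at a threshold of 0.01, 295 with the library sets as a block and 1 with the closest pairs summed. With a library left out it ran from 39 to 177, namely 40, 39, 48, 42 and 177 without Wnt gain-of-function replicates 1 to 5. The cause was not tested. Near-0 changes switched sign. Pygo2 was at -0.016 with the replicate block, -0.021 with limma-voom, -0.12 with the Y-linked covariate, -0.020 with the sets as a block, -0.056 with pairs summed and -0.013 with the GC slope as a covariate. Csnk1a1 was at 0.0049 by library size alone and 0.0025 with pairs summed, Gsk3a at -0.019 with the Y-linked covariate, and the ratio of Gsk3a to Gsk3b at -0.079 with pairs averaged. With each library left out, log2 fold changes ran from -0.0090 to 0.048 for Apc, -0.063 to 0.22 for Gsk3a, -0.039 to 0.058 for Gsk3b, -0.051 to 0.044 for Csnk1a1, 0.079 to 0.20 for Btrc and -0.11 to 0.13 for Pygo2, and differences of ratios from -0.13 to 0.16 for Gsk3a to Gsk3b, -0.17 to 0.075 for Bcl9 to Bcl9l and -0.13 to 0.086 for Pygo2 to Pygo1. For the Axin2 to Axin1 ratio, a paired test by the replicate block gave exact sign-flip p = 0.0625 (0.375 adjusted, where 0.0312 is the smallest possible). Exchange of labels within sets gave an exact permutation p of 0.0556 adjusted. Both tests use the main difference of 2.36, which could not change, so only their p-values carry information. The Axin2 to Axin1 difference was 2.02 with pairs averaged (exact permutation p = 0.0952 adjusted). It ran from 2.19 to 2.76 with a library left out. Numbers shared by the genotypes did not pair the libraries, with correlations of deviations from -0.377 to 0.463 and 3 of 12 libraries closest to their own number. The replicate block called 55 genes. Axin2 missed the threshold with that block (edgeR adjusted p = 0.125), with limma-voom (0.0982) and with pairs summed (0.22), and passed in 21 of 24 alternatives. Gsk3a had the fewest counts of the 10 genes, 59 to 147 per library, and its SE was 0.21. With the sets as a block its SE was 0.12, a narrowing that follows from how the sets were made.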

Other observations

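The ratio of Bcl9 to Bcl9l moved in opposite directions in library sets 1 and 2. Its log2 difference, Wnt gain of function minus control, was 0.54 in set 1, -0.71 in set 2 and 0.024 in set 3, with 2 libraries per genotype in each set and no test. Some paralogues of the complex, named here after their values were seen, gave few counts. Apc2 had 108 counts and Amer2 65 over all 12 libraries, and Frat1, whose protein binds glycogen synthase kinase 3, had 0 counts in each library, while its paralogue Frat2 had 243.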
